A study of Mus musculus with 6 samples.

Results

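Messenger RNA of 10 heat shock chaperone genes was described in the inguinal fat depot (iWAT), white fat that lies under the skin of the groin. The genes were taken by symbol from a named list, itself drawn up with earlier results of these data known: Hspa1a, Hspa1b, Hspa8, Hsph1, Dnajb1, Dnaja1, Bag3, Hspb1, Hsp90aa1 and Hsp90ab1. All 10 were found among the 54532 genes of the table, and all 10 were among the 15591 genes with enough counts to be tested. Estrogen-treated old mice (3 libraries) were compared with vehicle-treated old mice (3 libraries), and both groups had been exposed to cold for 7 days. The labels give no strain, sex, exact age, dose or route, and leave unsaid whether each library is a separate animal, so the p-values measure the spread between these libraries, which may be technical.

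Cytosolic heat shock proteins hold unfolded proteins and help them to fold. Cells under heat or oxidative stress activate heat shock factor 1, which binds repeats of the bases GAA (heat shock elements) and raises the inducible members, while Hspa8 and Hsp90ab1 are made constitutively. HSP70 proteins act with J-domain partners that deliver clients and with exchange factors that release them. HSP90 proteins complete the folding of kinases and keep steroid hormone receptors, the estrogen receptor among them, able to bind their ligand. In fat tissue the genes are expressed by adipocytes and by the fibroblasts, vessels and immune cells between them.

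The inducible HSP70 pair and the HSP110 gene Hsph1 had the most negative values in the estrogen libraries, with log2 fold changes of -1.41 for Hspa1b, -1.02 for Hspa1a and -0.90 for Hsph1. Constitutive Hspa8 followed at -0.52, and the HSP90 genes and Hspb1 lay between -0.05 and 0.06. In edgeR's quasi-likelihood test, adjusted over all tested genes by the method of Benjamini and Hochberg, 0 of the 10 genes passed an adjusted p of 0.05, and neither did any other gene (0%). At an unadjusted p under 0.05, 2 of the 10 were lower (Hspa1b and Hsph1) and 0 higher, where 10.9% of all tested genes were lower and 9.49% higher (20.4% in either direction). DESeq2 called 1 of the 10, Hspa1b, lower, and called 3.14% of all genes lower and 2.62% higher; limma-voom called 0 of them and 0 genes in all. Of the 10 genes 9 had a negative fold change, against 49.7% of all tested genes. The sign of Hsp90aa1, Hsp90ab1 and Hspb1 turned when single libraries were left out, and that of Hspb1 also when only library totals were used for scaling.

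Total counts ran from 16046601 to 19263623 in the estrogen libraries and from 19014779 to 20736771 in the vehicle libraries. Adipocyte markers were abundant in every library, with summed levels of 26236 to 45749 CPM (counts relative to the library total, scaled with the trimmed mean of M values) with estrogen and 18113 to 27130 CPM with vehicle. Markers of other cell types differed between libraries. The 8 fibroblast and progenitor markers summed to 1221 to 8330 CPM with estrogen, against 11938 to 33689 CPM with vehicle, and the 7 macrophage markers to 394 to 1049 CPM with estrogen, against 1324 to 2004 CPM with vehicle. Estrogen replicate 1 held skeletal muscle markers at 7428 CPM, where the other 5 libraries had 35.1 to 116 CPM. It also held T cell markers at 64.6 CPM, where the others had 2.59 to 10.7 CPM. All 5 tested T cell markers were higher with estrogen at an unadjusted p under 0.05, against 9.49% of all tested genes. Estrogen replicates 1 and 3 held B cell markers at 151 and 99.0 CPM, where the others had 3.96 to 6.64 CPM. The brown and beige adipocyte markers summed to 1320, 3048 and 377 CPM in estrogen replicates 1 to 3, against 1618, 1128 and 722 CPM in vehicle replicates 1 to 3. Among them Ucp1, the uncoupling protein of heat-producing fat, was at 10.2 CPM in estrogen replicate 3 and at 333 to 1754 CPM in the other 5 libraries. Vehicle replicate 1 held neutrophil markers at 156 CPM, where the others had 24.4 to 35.3 CPM. Of the mammary epithelial markers, Krt14 and Krt5 were at 0 in all libraries. In such bulk tissue, fewer cells of a type and less RNA per cell cannot be told apart.

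**Figure D1:**
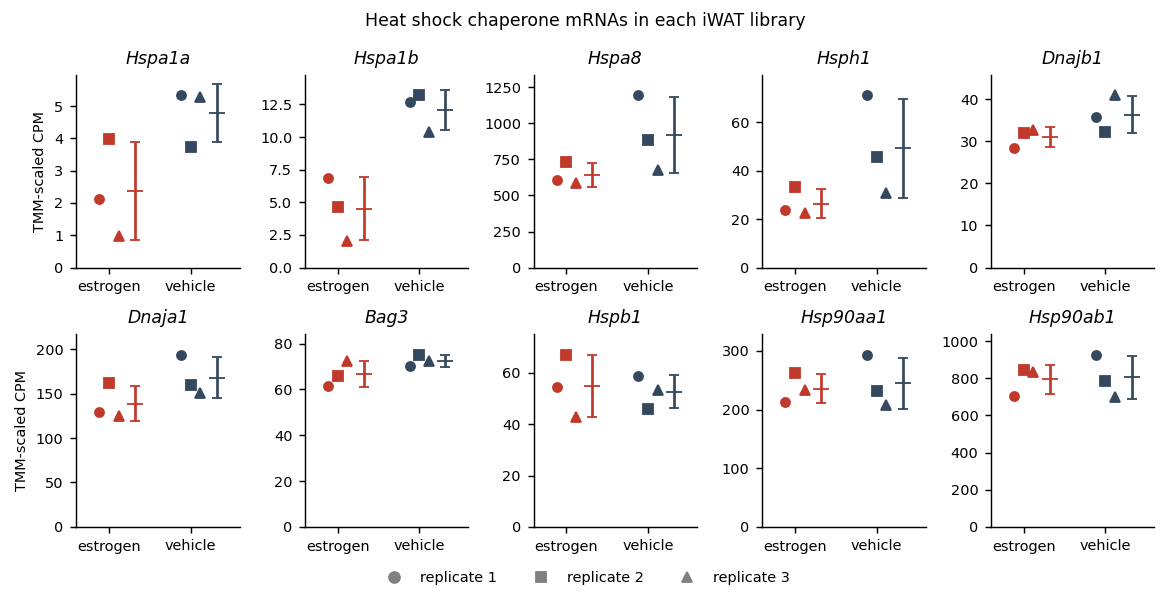
TMM-scaled CPM of each of the 10 genes in the 3 estrogen and the 3 vehicle libraries; symbols are replicates, and the bar beside them is the mean with its SD, on an axis that starts at 0. Only for Hspa1b do the estrogen libraries (2.02 to 6.89 CPM) all lie under the vehicle libraries (10.4 to 13.2 CPM).

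Hspa1a and Hspa1b encode the stress-inducible HSP70. They lie next to each other on chromosome 17 on the minus strand, Hspa1a (ENSMUSG00000091971) at 34969190 to 34972156 and Hspa1b (ENSMUSG00000090877) at 34956436 to 34959238 (mm10). Their promoters are shown because the copies are almost the same up to the start site: over the RefSeq window of 300 bases, 250 before and 50 after the start, they differed at 4 bases (98.7% identical). The 250 bases before each start, 5′ to 3′ on the gene's strand (RefSeq, GRCm38.p6, chr17:34959239-34959488 for Hspa1b and chr17:34972157-34972406 for Hspa1a), carry the letters GAANNTTC, a pair of inverted GAA repeats, once (in capitals), from -104 to -97.
Hspa1b: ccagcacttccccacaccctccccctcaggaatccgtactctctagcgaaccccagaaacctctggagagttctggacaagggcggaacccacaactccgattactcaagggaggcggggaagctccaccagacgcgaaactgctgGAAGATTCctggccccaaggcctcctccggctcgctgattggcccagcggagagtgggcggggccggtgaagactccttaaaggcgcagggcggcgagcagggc
Hspa1a: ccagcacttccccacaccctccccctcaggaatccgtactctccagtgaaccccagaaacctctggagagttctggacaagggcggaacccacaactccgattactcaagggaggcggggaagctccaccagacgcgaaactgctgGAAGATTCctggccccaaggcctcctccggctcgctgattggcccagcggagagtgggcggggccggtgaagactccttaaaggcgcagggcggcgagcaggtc

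Hspa1b was at 6.89, 4.65 and 2.02 CPM in estrogen replicates 1 to 3, against 12.7, 13.2 and 10.4 CPM in vehicle replicates 1 to 3. All 3 estrogen libraries lay under all 3 vehicle libraries, as they did for 14.7% of all tested genes. The mean was 4.52 ± 2.44 CPM with estrogen, against 12.1 ± 1.50 CPM with vehicle (SD, n = 3 each), a log2 fold change of -1.41 ± 0.40 (SE), or 2.65-fold lower, with an edgeR adjusted p of 0.207 and a DESeq2 adjusted p of 0.0292. The 95% interval of the fitted log2 fold change was -2.35 to -0.46. Leaving out 1 library at a time gave -1.85 to -1.06, with edgeR adjusted p from 0.216 to 0.52.

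Hspa1a was at 2.13, 3.99 and 0.975 CPM in estrogen replicates 1 to 3, against 5.34, 3.74 and 5.29 CPM in vehicle replicates 1 to 3. Estrogen replicate 2 lay above vehicle replicate 2, so the groups overlapped. The raw counts behind these values were 41, 61 and 14 with estrogen and 105, 74 and 122 with vehicle, the fewest of the 10 genes. The log2 fold change was -1.02 ± 0.48 (SE; edgeR adjusted p = 0.273), and it was -0.65 without estrogen replicate 3 and -1.61 without estrogen replicate 2. With estrogen replicates 1 and 3 both left out it was -0.26. Reads from the shared part of the pair match both genes, and how they were counted is not given. Both counts were therefore also summed, which does not recover such reads if they were left out. The sum was at 9.02, 8.64 and 2.99 CPM with estrogen against 18.0, 16.9 and 15.7 CPM with vehicle. The groups did not overlap for the sum, with a log2 fold change of -1.29 ± 0.38 (SE; edgeR adjusted p = 0.207). Fibroblast and macrophage marker sums also lay lower in each estrogen library than in any vehicle library. They were lowest in estrogen replicate 3, where Hspa1a and Hspa1b were lowest as well. Some single markers overlapped: Dcn was at 726 CPM in estrogen replicate 1 and 675 CPM in vehicle replicate 1. Cd163 was at 96.0 and 66.4 CPM in the same libraries. Cd68 was at 112 CPM in estrogen replicate 2 and 110 CPM in vehicle replicate 3. The part of these markers in the result was not tested.

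Hspa8 encodes the constitutive HSP70 (HSC70), which also uncoats clathrin vesicles (ENSMUSG00000015656, chromosome 9, 40800984 to 40810087). It was at 605, 736 and 585 CPM in estrogen replicates 1 to 3, against 1196, 885 and 678 CPM in vehicle replicates 1 to 3. Estrogen replicate 2 lay above vehicle replicate 3, and the vehicle libraries were the more spread group. The log2 fold change was -0.52 ± 0.23 (SE; edgeR adjusted p = 0.257), and -0.29 without vehicle replicate 1.

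Hsph1 encodes HSP105, an HSP110 protein that exchanges the nucleotide of HSP70 (ENSMUSG00000029657, chromosome 5, 149614287 to 149636376). It was at 23.6, 33.3 and 22.4 CPM in estrogen replicates 1 to 3, against 71.2, 45.9 and 30.8 CPM in vehicle replicates 1 to 3. The libraries came in the same order as for Hspa8, from vehicle replicate 1 down to estrogen replicate 3, with estrogen replicate 2 between vehicle replicates 2 and 3. The log2 fold change was -0.90 ± 0.31 (SE; edgeR adjusted p = 0.208; DESeq2 adjusted p = 0.0876), and -0.54 without vehicle replicate 1. That library, the highest for both genes, was also the one high in neutrophil markers. The summed brown and beige adipocyte markers came in the same order of libraries within each group as both genes. Ppargc1a did not follow it, with 19.8, 16.7 and 23.4 CPM with estrogen and 13.4, 18.2 and 21.6 CPM with vehicle. Dio2 did not follow it among the vehicle libraries, with 13.1, 11.3 and 22.6 CPM. The part of the neutrophil, brown and beige markers in the result was not tested.

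Promoters were available for 7 members. Of these, Hsph1 was the only gene whose 300-base windows held 3 consecutive inverted repeats, TTCNNGAANNTTC or its complement GAANNTTCNNGAA. Of all 32851 windows in the promoter table, 0.603% held them. The site lies just after both RefSeq starts of the gene, and is shown with 4 flanking bases on the left and 1 on the right (chr5:149636287-149636304, minus strand, GRCm38.p6; repeats in capitals).
Hsph1: cagaTTCTGGAAAGTTCt

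The table held promoters of 7 of the 10 genes, and none of Hspa8, Hsp90aa1 or Hsp90ab1. A pair of inverted repeats (GAANNTTC or TTCNNGAA, each its own complement on the other strand and both contained in the 3-repeat letters) was found in at least 1 window of 6 of the 7, all but Dnajb1, and in 17% of all 27025 genes. Within the 250 bases before the start, 5 of the 7 held one, against 14.5% of all genes. Hspb1 held a pair of matches, at -117 to -110 and -97 to -90, and is shown because it has the most of these letters before its start, beside a fold change near 0 (chr5:135887669-135887918, plus strand, GRCm38.p6; matches in capitals). These are matches of letters and were not tested for binding.
Hspb1: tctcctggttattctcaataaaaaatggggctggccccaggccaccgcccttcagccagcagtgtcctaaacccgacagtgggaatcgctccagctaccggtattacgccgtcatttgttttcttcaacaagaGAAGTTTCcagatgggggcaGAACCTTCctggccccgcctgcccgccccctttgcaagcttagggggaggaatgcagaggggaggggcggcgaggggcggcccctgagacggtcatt

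Dnajb1 and Dnaja1 encode HSP40 proteins, the J-domain partners that pass clients to HSP70. Dnajb1 (ENSMUSG00000005483, chromosome 8, 83608193 to 83612653) was at 28.4, 32.0 and 32.8 CPM in estrogen replicates 1 to 3, against 35.8, 32.2 and 41.0 CPM in vehicle replicates 1 to 3. Only estrogen replicate 3 lay above the lowest vehicle library, and the log2 fold change was -0.23 ± 0.13 (SE; edgeR adjusted p = 0.333), or -0.13 without vehicle replicate 3. Dnaja1 (ENSMUSG00000028410, chromosome 4, 40722150 to 40737149) was at 130, 162 and 125 CPM in estrogen replicates 1 to 3, against 194, 160 and 151 CPM in vehicle replicates 1 to 3. Estrogen replicate 2 lay above the vehicle replicates 2 and 3. The log2 fold change was -0.28 ± 0.16 (SE; edgeR adjusted p = 0.352), and -0.16 without vehicle replicate 1.

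Bag3 encodes an exchange factor that links HSP70 with small heat shock proteins and the disposal of damaged proteins by autophagy (ENSMUSG00000030847, chromosome 7, 128523616 to 128546981). It was at 61.6, 66.0 and 72.6 CPM in estrogen replicates 1 to 3, against 70.0, 75.2 and 72.2 CPM in vehicle replicates 1 to 3. The groups overlapped, and the log2 fold change was -0.12 ± 0.11 (SE; edgeR adjusted p = 0.563), with a 95% interval of -0.39 to 0.15.

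Hspb1 encodes HSP25, the mouse counterpart of human HSP27, a small heat shock protein that keeps unfolded proteins from clumping (ENSMUSG00000004951, chromosome 5, 135887919 to 135889563). It was at 54.4, 67.1 and 42.8 CPM in estrogen replicates 1 to 3, against 58.8, 45.8 and 53.2 CPM in vehicle replicates 1 to 3. The highest and the lowest of the 6 libraries were both estrogen libraries. The log2 fold change was 0.06 ± 0.19 (SE; edgeR adjusted p = 0.88), with a 95% interval of -0.38 to 0.49.

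Hsp90aa1, the inducible cytosolic HSP90 (ENSMUSG00000021270, chromosome 12, 110690605 to 110702728), was at 212, 263 and 233 CPM in estrogen replicates 1 to 3, against 294, 231 and 209 CPM in vehicle replicates 1 to 3. Hsp90ab1, the constitutive form (ENSMUSG00000023944, chromosome 17, 45567775 to 45573271), was at 704, 847 and 832 CPM in estrogen replicates 1 to 3, against 928, 787 and 699 CPM in vehicle replicates 1 to 3. For both genes the vehicle group held the highest and the lowest library. The log2 fold changes were -0.05 ± 0.17 and -0.02 ± 0.17 (SE; edgeR adjusted p = 0.884 and 0.961). The 95% intervals, -0.45 to 0.35 and -0.41 to 0.38, leave room for a moderate difference in either direction.

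**Figure D2:**
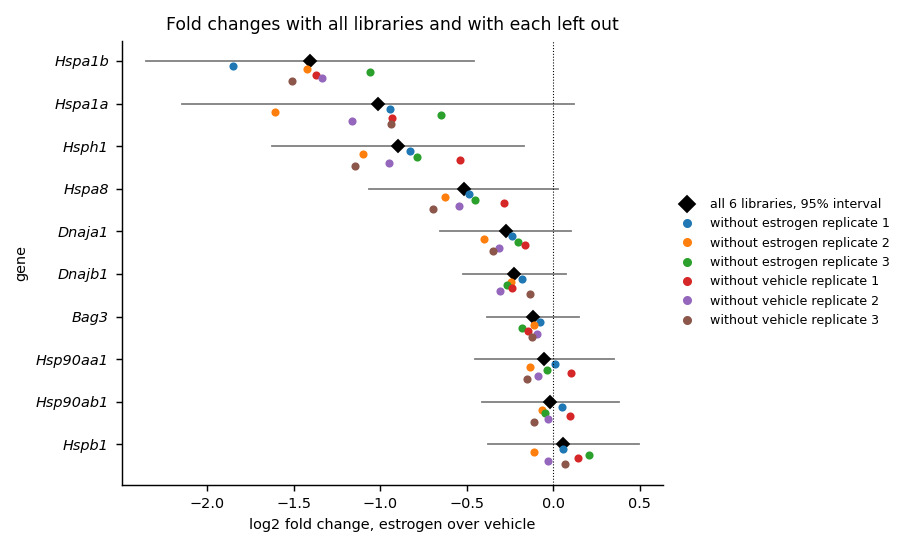
Log2 fold change, estrogen over vehicle, of each gene with all 6 libraries (black diamond, grey line its 95% interval) and with each library left out in turn (coloured points). Hspa1b and Hspa1a stay under -0.6 throughout, Hspa8 and Hsph1 move toward 0 without vehicle replicate 1, and the HSP90 genes and Hspb1 have points on both sides of 0.

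Ratios of counts within a library do not depend on how libraries are scaled, and 8 of them, chosen after the values were seen, were compared. Hspa8 counts were 85.9, 86.9 and 70.3% of Hsp90ab1 counts in estrogen replicates 1 to 3, against 129, 112 and 97.0% in vehicle replicates 1 to 3. Hsph1 counts were 3.91, 4.52 and 3.84% of Hspa8 counts with estrogen, against 5.96, 5.19 and 4.55% with vehicle, and the sum of Hspa1a and Hspa1b was 1.49, 1.18 and 0.512% of Hspa8 with estrogen, against 1.50, 1.92 and 2.31% with vehicle. The groups did not overlap for these 3 ratios, each with p = 0.1 in an exact two-sided permutation test, the smallest p that 3 against 3 libraries can give (adjusted over the 8 ratios, 0.267). Hsp90aa1 counts were 30.2, 31.0 and 28.0% of Hsp90ab1 counts with estrogen against 31.7, 29.4 and 29.9% with vehicle (exact permutation p = 0.7). The ratios of Dnajb1, Dnaja1 and Bag3 to Hspa8 had higher means with estrogen, in groups that overlapped. Dnajb1 counts averaged 4.88% of Hspa8 counts with estrogen and 4.23% with vehicle, Dnaja1 counts 21.6% with estrogen and 18.8% with vehicle, and Bag3 counts 10.5% with estrogen and 8.34% with vehicle (exact permutation p = 0.5, 0.4 and 0.3).

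Per length, on the TPM scale (counts divided by gene length, as a share of their sum in the library), the order of the gene means was the same with estrogen as with vehicle. Hsp90ab1 had the highest level, 676 ± 49.0 TPM with estrogen and 817 ± 68.1 TPM with vehicle (SD, n = 3 each), followed by Hspa8 at 383 ± 64.3 TPM with estrogen and 648 ± 145 TPM with vehicle. Hsp90aa1 was next, at 154 ± 18.3 TPM with estrogen and 189 ± 22.1 TPM with vehicle, and then Hspb1, at 137 ± 37.1 TPM with estrogen and 156 ± 14.8 TPM with vehicle. Bag3, Dnaja1 and Dnajb1 had 66.4, 41.3 and 24.7 TPM with estrogen and 86.8, 59.4 and 34.8 TPM with vehicle. Hsph1, Hspa1b and Hspa1a were lowest, at 9.36, 4.27 and 2.08 TPM with estrogen and 20.5, 13.2 and 4.94 TPM with vehicle. Library values overlapped between Hspb1 and Hsp90aa1 and between Hspa1a and Hspa1b with estrogen, and between Hspa8 and Hsp90ab1 and between Hsph1 and Hspa1b with vehicle. TPM shares are not corrected for a few very abundant genes, so they are used here for the order of genes and not to compare groups. The order depends on the deposited lengths, which for Dnaja1 (8629 bases) and Hsph1 (7266 bases) exceed the longest annotated transcripts of 5622 and 4764 bases. The excess was smaller for Hspa8 (4301 against 3158 bases), Hsp90aa1 (3931 against 3281 bases) and Hsp90ab1 (2999 against 2520 bases), and those genes may also stand too low. The order also depends on how reads from sequence shared between genes were counted, which is not given. Hspa1a, Hspa1b, Hspa8, Hspb1 and Hsp90aa1 share much of their sequence, as described below.

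The uniqueness of the sequences differed between members. Of the 50-base windows along the longest GENCODE transcript, 62.3% for Hspa1b and 60.3% for Hspa1a also occurred in a transcript of another gene, mainly each other. The share was 58.5% for Hsp90aa1, 51.6% for Hspb1 and 51.4% for Hspa8, in each case mostly with processed pseudogenes, and 18.7% for Dnaja1. It was 4.49% for Hsp90ab1 and 0.407% for Dnajb1, and 0 windows were shared for Hsph1 and Bag3. How reads from shared windows were counted is not given in the sources used here, so the counts of the first group are uncertain, while Hsph1, Bag3 and Dnajb1 rest on sequence of their own. Dnaja1 overlaps Smu1 and Gm6297 on the opposite strand, and the strand setting is not given either. The span of Bag3 overlaps 2610306O10Rik on the same strand, which had 69 counts over all libraries.

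Of the transcription factors of the response, Hsf1, the main heat shock factor, was at 22.4 ± 0.929 CPM with estrogen, against 24.4 ± 0.522 CPM with vehicle (SD, n = 3 each), a log2 fold change of -0.13 ± 0.10 (SE) with groups that did not overlap (edgeR adjusted p = 0.504). Hsf4, known for its role in the lens, was at 7.02 ± 0.519 CPM with estrogen, against 5.14 ± 1.23 CPM with vehicle, a log2 fold change of 0.45 ± 0.24 (SE; edgeR adjusted p = 0.314), and its groups did not overlap in the other direction. Hsf2, a paralogue, was at -0.14 ± 0.19, and Hsbp1, which binds heat shock factor trimers, at 0.09 ± 0.13. In all, 4 of the 6 listed regulators were tested, 0 passed the edgeR threshold, and 0 had an unadjusted p under 0.05. Of all tested genes, 14.7% were lower without overlap, as Hsf1 was, and 12.8% were higher without overlap, as Hsf4 was.

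Across the 74 tested genes of the other cytosolic chaperones, their cofactors and regulators, the median log2 fold change was 0.08, against -0.25 for the 10 heat shock genes and 0.0025 for all tested genes. The difference between these medians was not tested. Of these 74, 0 passed the edgeR threshold in either direction and DESeq2 called 0. At an unadjusted p under 0.05, 6 were higher and 1 lower. Over all tested genes, 9.49% were higher and 10.9% lower at that p, and the list counts below stand beside these same shares. DESeq2 called 2.62% of all genes higher and 3.14% lower. Some genes stand in more than 1 list.

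Among the other 7 cytosolic HSP70 and HSP110 genes, Hspa2, an HSP70 best known from the testis, was the 1 gene lower at an unadjusted p under 0.05. It was at 4.92 ± 2.20 CPM with estrogen, against 9.14 ± 1.46 CPM with vehicle, with a log2 fold change of -0.89 ± 0.36 (SE; edgeR adjusted p = 0.231). Hspa12a, a distant HSP70 relative, was at -0.38 ± 0.17. Hspa4 and Hspa4l, HSP110 relatives of Hsph1, were at 0.02 ± 0.13 and 0.21 ± 0.20; their difference from Hsph1 was not tested. Hspa12b, Hspa14 and Hspa1l, the last next to the Hspa1a and Hspa1b genes, were at 0.10, -0.06 and 0.44.

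The 17 other J-domain genes had a median of 0.26. At an unadjusted p under 0.05, 3 were higher and 0 lower, against 9.49 and 10.9% of all tested genes. Dnajb2, a J-protein that sorts clients for degradation, was at 46.3 ± 3.58 CPM with estrogen, against 38.3 ± 1.36 CPM with vehicle, a log2 fold change of 0.27 ± 0.11 (SE; edgeR adjusted p = 0.223). Dnajc5, a vesicle protein, Dnajc21, a ribosome assembly factor, and Dnajc27 were at 0.29, 0.31 and 0.54.

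The 8 exchange factors and cofactors of HSP70 had a median of 0.09. At an unadjusted p under 0.05, 2 were higher and 0 lower, against 9.49 and 10.9% of all tested genes. Bag1, a relative of Bag3 that links HSP70 to the proteasome, was at 305 ± 55.9 CPM with estrogen, against 231 ± 8.14 CPM with vehicle, a log2 fold change of 0.40 ± 0.16 (SE; edgeR adjusted p = 0.232). Bag4 and Bag2 were at 0.64 and 0.45, and Bag5 and Bag6 at -0.10 and 0.09. The cofactors St13 (HIP), Stub1 (the ubiquitin ligase CHIP) and Hspbp1, another exchange factor, were at 0.07, 0.08 and -0.06. The values of Bag1 and Bag3 thus lay on opposite sides of 0, but the difference between them was not tested.

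Of the 16 HSP90 cochaperones, 0 had an unadjusted p under 0.05 in either direction, and the median was 0.07. The 4 of smallest p were Unc45a, a myosin chaperone (0.35 ± 0.16), Ttc4 (0.23 ± 0.11), Aarsd1 (0.77 ± 0.41) and Fkbp4, the immunophilin FKBP52 of steroid receptor complexes (0.27 ± 0.15; log2 fold changes with SE). Among the receptors that HSP90 serves, Esr1, the estrogen receptor alpha, was at 69.4 ± 22.8 CPM with estrogen, against 45.2 ± 2.19 CPM with vehicle (log2 fold change 0.62 ± 0.23, SE; edgeR adjusted p = 0.212), and at a log2 fold change of 0.33 without estrogen replicate 3. The glucocorticoid receptor gene Nr3c1 was at -0.11 and the mineralocorticoid receptor gene Nr3c2 at 0.20. Esr2 and Pgr had too few counts to be tested.

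The other small heat shock proteins, of which 7 of 9 could be tested, had a median of 0.45, and Hspb6, Hspb7, Hspb2 and Cryab were each highest in the same library. Hspb6, a relative of Hspb1 abundant in muscle, was at 100.3, 26.9 and 21.4 CPM in estrogen replicates 1 to 3, against 21.8, 16.2 and 17.5 CPM in vehicle replicates 1 to 3 (log2 fold change 1.42 ± 0.57, SE; edgeR adjusted p = 0.226), and its log2 fold change was 0.37 without estrogen replicate 1. Hspb7, a heart and muscle form, was at 38.3, 0.458 and 0.139 CPM with estrogen, against 0.559, 2.38 and 0.737 CPM with vehicle, and its log2 fold change of 3.42 became -1.996 without estrogen replicate 1. That library, which alone held skeletal muscle markers at 7428 CPM, was also the highest for Cryab (0.33 ± 0.42) and Hspb2 (0.79 ± 0.65), whose log2 fold changes were -0.16 and -0.22 without it. Hspb8, the partner of Bag3, was at 0.08 ± 0.14, and Hspb9 and Hspb11 at 0.45 and 0.31. Hspb1 was not highest in that library, and its log2 fold change was 0.06 with and without it.

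**Figure D3:**
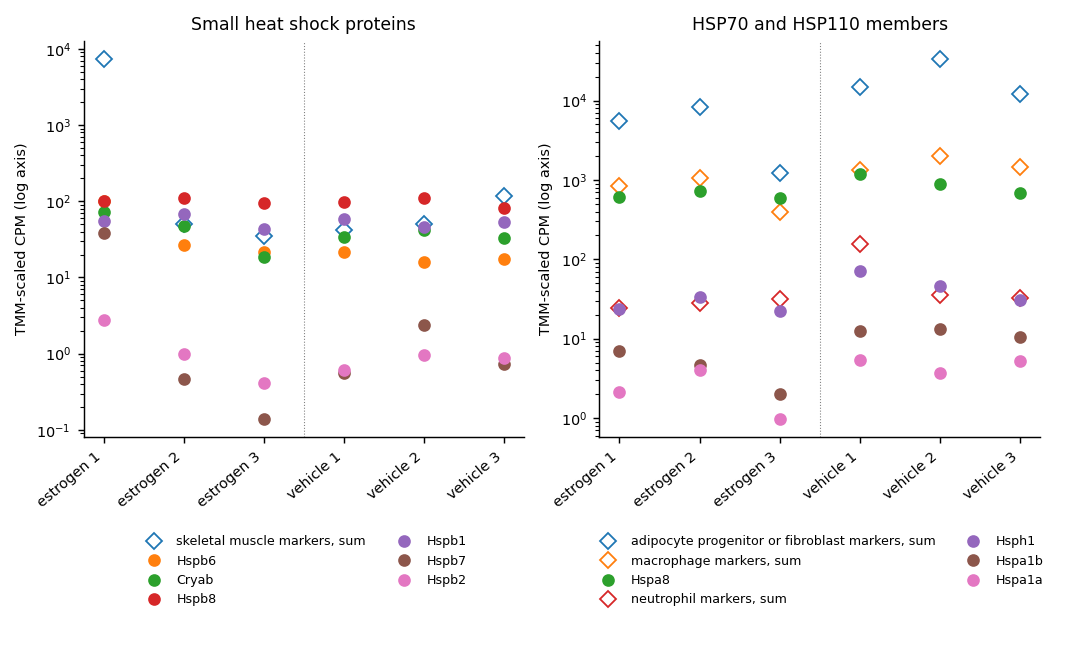
TMM-scaled CPM on a log axis in each library, for small heat shock genes with the summed skeletal muscle markers (left) and for HSP70 and HSP110 genes with summed fibroblast, macrophage and neutrophil markers (right); filled circles are genes, open diamonds marker sums. Vertical positions may be compared across libraries within a gene, not between genes. Estrogen replicate 1 stands apart for muscle markers (7428 CPM), Hspb6 and Hspb7, and vehicle replicate 1 is highest for neutrophil markers (156 CPM), Hspa8 and Hsph1.

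The partners of Bag3 in the removal of protein aggregates, 10 genes, had a median of 0.27, with Hspb6 the 1 gene higher at an unadjusted p under 0.05 (0.37 without estrogen replicate 1, as given above). The autophagy receptor genes Sqstm1 (p62) and Optn were at 0.37 ± 0.17 and 0.25 ± 0.11 (log2 fold change ± SE), and Map1lc3b, which encodes an autophagosome protein, at 0.32 ± 0.16. Among 16 other stress genes that heat shock factor 1 is known to raise, the median was 0.06. At an unadjusted p under 0.05, 1 was lower and 0 were higher, against 10.9 and 9.49% of all tested genes. That gene was Serpinh1, the collagen chaperone HSP47 of the endoplasmic reticulum, at 363 ± 158 CPM with estrogen, against 834 ± 299 CPM with vehicle (log2 fold change -1.20 ± 0.39, SE; edgeR adjusted p = 0.207). Hmox1, the haem oxygenase, was at -0.61 ± 0.30, and Hspe1 and Hspd1, the mitochondrial chaperonins, at 0.42 ± 0.21 and 0.39 ± 0.20.

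The chaperonin TRiC, which folds actin and tubulin, lay within a narrow range, with its 9 genes between -0.09 and 0.07, a median of 0.02 and 0 at an unadjusted p under 0.05. Its 4 genes of smallest p were Tcp1 (0.07), Cct8 (-0.07), Cct6a (0.07) and Cct7 (0.05). Prefoldin, which hands clients to TRiC, had a median of 0.06 with 0 of 6 at an unadjusted p under 0.05: Pfdn1 and Pfdn2 were at 0.12 and 0.14, Pfdn4 and Pfdn5 at -0.16 and -0.10, and Pfdn6 and Vbp1 at 0.03 and 0.09.

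Set beside the chaperones of other compartments, the cytosolic genes had the middle median. The 16 chaperones of the endoplasmic reticulum had a median of -0.68, with 0 edgeR calls, 14 lower at an unadjusted p under 0.05, 13 lower without overlap of the groups, and 13 called lower by DESeq2. Over all tested genes 10.9% were lower at that p, 14.7% were lower without overlap and DESeq2 called 3.14% lower. Fibroblast and macrophage markers were lower beside them, beside Serpinh1 and beside the immediate early genes, 7 of 8 and 5 of 7 at an unadjusted p under 0.05, and their part in these results was not tested. Sdf2l1, a cofactor of the main chaperone there, was at 7.62 ± 2.47 CPM with estrogen, against 20.8 ± 5.17 CPM with vehicle (log2 fold change -1.45 ± 0.28, SE; edgeR adjusted p = 0.207), and the protein disulfide isomerases Pdia3 and Pdia4 and Creld2 were at -0.69, -0.67 and -0.93. The 12 mitochondrial chaperones and proteases had a median of 0.40, with 0 calls by edgeR or DESeq2. At an unadjusted p under 0.05, 8 were higher and 0 lower, and 7 were higher without overlap of the groups. Over all tested genes, 9.49% were higher at that p and 12.8% were higher without overlap. Clpb, a disaggregase, the proteases Lonp1 and Clpp, and Grpel1, the exchange factor of mitochondrial HSP70, were at 0.38, 0.44, 0.57 and 0.49.

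The 21 immediate early genes, mostly transcription factors, are induced within minutes by stress or growth factors. They had a median of -0.83, with 0 edgeR calls and 13 lower and 0 higher at an unadjusted p under 0.05. Of the 21, 10 were lower without overlap of the groups, and DESeq2 called 9 lower. Over all tested genes 10.9% were lower and 9.49% higher at that p. The groups did not overlap, lower, for 14.7% of all tested genes, and DESeq2 called 3.14% lower. Jund was at 39.2 ± 7.29 CPM with estrogen, against 71.7 ± 8.54 CPM with vehicle (log2 fold change -0.87 ± 0.17, SE; edgeR adjusted p = 0.207), and Klf6, Fosl2 and Ier5 were at -0.54, -0.83 and -0.52. Of the RNA-binding proteins that cold induces and heat lowers, Cirbp was at 58.4, 49.5 and 89.6 CPM in estrogen replicates 1 to 3, against 29.1, 39.4 and 52.1 CPM in vehicle replicates 1 to 3 (log2 fold change 0.71 ± 0.28, SE; edgeR adjusted p = 0.226). Rbm3, the other one, was at -0.02 ± 0.13.

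**Figure D4:**
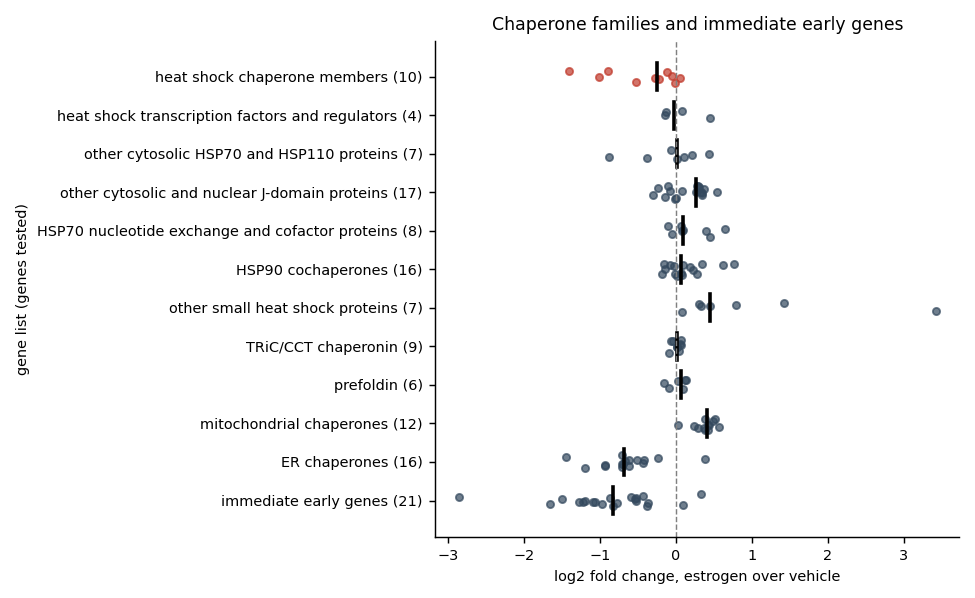
Log2 fold change, estrogen over vehicle, of every tested gene of 12 lists (points; red, the heat shock chaperone members), with each list's median (black bar) and the median of all tested genes (dashed line); the number of genes tested is in brackets. The members spread from -1.41 to 0.06, TRiC and prefoldin cluster at 0, the endoplasmic reticulum chaperones and immediate early genes lie mostly under 0, and the mitochondrial chaperones above it.

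Over the 6 libraries, vehicle replicate 1 was the highest library for 6 of the 10 members and estrogen replicate 3 the lowest for 6. The median deviation of the 10 genes from their own means was -0.20, 0.03 and -0.30 log2 units in estrogen replicates 1 to 3, against 0.33, 0.09 and -0.0041 in vehicle replicates 1 to 3. Estrogen replicate 2 thus lay above vehicle replicate 3, and the other estrogen libraries lay under all vehicle libraries. Within groups, Hspa1a and Hspa1b varied most among the estrogen libraries (SD 1.02 and 0.90 on the log2 CPM scale, against 0.29 and 0.19 with vehicle), and Hsph1 among the vehicle libraries (0.60, with 0.31 with estrogen). The 6 genes whose log2 CPM followed the mean standardised profile of the members most closely, of 9685 compared, were Sae1, Sdc4, Cdk2ap2, Chmp6, Ebna1bp2 and Pnp, with Pearson's r of 0.977 to 0.99 over the 6 libraries. These r values are the highest picked from many genes over few libraries, and shared regulation was not tested.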

How the data were processed

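The deposited table holds raw counts of reads for each gene in 6 libraries. HISAT2, featureCounts and the build mm10 were used, per the submitters' processing notes; the sources used here give no versions, strand setting or treatment of multi-mapping reads. Groups and replicate numbers came from the sample titles. Counts were filtered with filterByExpr, scaled with TMM factors and compared by edgeR's quasi-likelihood F test without a replicate block. The p-values were adjusted over 15591 genes (threshold 0.05), and standard errors came from the F statistic. Intervals (95%) are those of the fitted log2 fold change, built from these standard errors, and rest on the spread between libraries only. TPM used the deposited gene lengths. The test was tested on simulated data. The tools were DESeq2 1.42.0, limma 3.58.1 and edgeR 4.0.16, run under R 4.3.3. A count of 3, the detection floor, equals 0.145 to 0.187 CPM. No 2 libraries of a group agreed within sampling noise (chi-square per degree of freedom 41.7 to 88.6). A gene of the receptor list is not reported here. The text names all 10 members, every tested gene of a list of up to 8, the 4 genes of smallest p in longer lists, and the 6 genes of most similar profile. Members and lists were chosen with earlier results of these data known. Promoters came from RefSeq (GRCm38.p6, the assembly of mm10), transcripts from GENCODE M21. Alternatives covered scaling, filter, test, block, mitochondrial genes, summed copies and left-out libraries.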

Additional observations from a re-analysis of the deposited data

How the results depend on the processing

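The 10 members kept 0 edgeR calls under each alternative run with edgeR or limma-voom, while DESeq2 called 1 member and 844 genes, with 4 members at an unadjusted p under 0.05 (21.8% of all genes). Leaving out 1 library at a time gave 0 to 13 genes called (13 without estrogen replicate 2), 1 to 3 members at an unadjusted p under 0.05 (9.05 to 20.2% of all genes) and 1 to 5 members without overlap (32 to 41.7% of all genes, in either direction). Scaling by library totals only moved the median of all genes to -0.17 and that of the members to -0.42, with 6 members at that p and 7 without overlap (22.9 and 31.1% of all genes). With no filter these counts were 4 and 2 (14.7 and 18.5%). With the libraries estrogen 1 and 3 left out (chosen after seeing the data, for their B cell markers) 1 gene was called, 1 member had that p and 3 did not overlap (9.64 and 60.9% of all genes); the lone estrogen library is assumed to vary like the others. With estrogen 1 and vehicle 1 left out (also chosen after seeing the data) these last counts were 1 and 3 (17 and 54.8%). Whether the same replicate numbers pair the libraries cannot be settled with 3 libraries per group. Same-numbered libraries correlated with r of -0.126, 0.203 and 0.311 in their deviations from group means. Estrogen replicates 2 and 3 matched the vehicle library of their own number best, and estrogen replicate 1 matched vehicle replicate 2 best. The deposited column names number some libraries otherwise than the titles. With the replicate block 0 genes passed, 2 members had an unadjusted p under 0.05 and the median was -0.25. Without estrogen replicate 3, the log2 fold change was 0.25 for Bag1, 0.20 for Sqstm1, 0.17 for Unc45a, 0.17 for Map1lc3b, 0.44 for Aarsd1, 0.42 for Cirbp, -0.58 for Hspa2 and -0.38 for Hmox1; without estrogen replicate 1 it was 0.30 for Dnajc27. Counts limit precision most for Hspa1a, with 14 to 122 per library.

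The remaining sign changes concerned named genes, none of them past the threshold, given as log2 fold changes. By library totals only, the sign turned for Hspb1 (-0.10), Hsbp1 (-0.089), Hspa12b (-0.074), Hspa4 (-0.15), Bag6 (-0.076), Stub1 (-0.096), St13 (-0.11), Hspb8 (-0.082), Tcp1 (-0.11), Cct6a (-0.11), Cct7 (-0.13), Pfdn1 (-0.049), Pfdn2 (-0.035), Vbp1 (-0.075) and Pfdn6 (-0.14). With no filter, the sign turned for Hspa4 (-0.0033). With estrogen 1 and 3 left out, the sign turned for Hsp90aa1 (0.11), Hsp90ab1 (0.083), Hsbp1 (-0.0045), Hspa1l (-0.14), Hspa14 (0.019), Hspb7 (-1.39), Cct6a (-0.020) and Cct7 (-0.0036). With estrogen 1 and vehicle 1 left out, the sign turned for Hsp90aa1 (0.20), Hsp90ab1 (0.21), Hspa14 (0.10), Hspbp1 (0.098), Hspb7 (-2.30), Hspb2 (-0.34), Cryab (-0.16), Cct8 (0.14) and Rbm3 (0.028). Leaving out 1 library at a time gave values on both sides of 0 for Hsp90aa1 (-0.16 to 0.10), Hsp90ab1 (-0.11 to 0.096), Hspa14 (-0.15 to 0.0085), Hspb7 (-1.996 to 4.31), Hspb2 (-0.22 to 1.20), Cryab (-0.16 to 0.70), Hspb1 (-0.11 to 0.21), Hspa4 (-0.068 to 0.075), Pfdn6 (-0.046 to 0.082), Nr3c1 (-0.23 to 0.0014), Rbm3 (-0.10 to 0.034), Hsbp1 (-0.0010 to 0.13), Stub1 (-0.012 to 0.16), St13 (-0.015 to 0.11), Tcp1 (-0.0035 to 0.15), Cct6a (-0.075 to 0.18), Cct7 (-0.035 to 0.14), Hspbp1 (-0.16 to 0.027), Cct8 (-0.16 to 0.056), Bag5 (-0.24 to 0.085) and Hspb8 (-0.023 to 0.17). For these sign changes the cause was not tested.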

Other observations

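Processed pseudogenes of the members carried few counts of their own. Gm8355, a copy of Hspa8, had 24, 15 and 18 counts in estrogen replicates 1 to 3 and 48, 27 and 15 counts in vehicle replicates 1 to 3, or 0.167% of the Hspa8 total. Gm15542, a copy of Dnaja1, had 128, 98 and 65 counts with estrogen and 187, 147 and 137 counts with vehicle, or 4.43% of the Dnaja1 total. Gm12346, a copy of Hsp90aa1, had 54, 43 and 52 counts with estrogen and 76, 87 and 83 counts with vehicle, or 1.48% of that total. Hsp25-ps1, the Hspb1 pseudogene, had 9 counts in all. These values show how many reads were assigned to the copies, not how many were lost from the members. Within the Hspa1a and Hspa1b pair, Hspa1a took 23.6, 46.2 and 32.6% of the counts with estrogen and 29.7, 22.1 and 33.8% with vehicle (exact permutation p = 0.5, two-sided).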
